A study of Mus musculus with 6 samples.

Results

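Complex I, the NADH:ubiquinone oxidoreductase that opens the mitochondrial respiratory chain, was followed here through its nuclear-encoded subunit genes in mouse hepatocytes with and without the transcription factor Xbp1. The genes were chosen by name: an Nduf symbol with the letter a, b, c, s or v and a number, or Ndufab1, without the names containing "-ps". This rule took 41 of the 54532 genes in the table. Of the 41, 38 were annotated as protein-coding and 3 as processed pseudogenes (Ndufa11b, Ndufb4c and Ndufs6b). Among the 38, 36 encode complex I subunits. Ndufa4 carries the family name but is now placed in complex IV, and Ndufa4l2 is its paralog, so both are given apart.

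The hepatocytes came from C57BL/6 mice aged 32 to 34 weeks that had been on a high-fat diet (HFD) for 26 weeks. The 3 XCON libraries were from Xbp1FL/FL mice, whose Xbp1 alleles are floxed, and the 3 XCKO libraries from Xbp1ΔHep mice, in which Xbp1 is deleted in hepatocytes. Both groups had the same diet, and which Cre line made the deletion was not given in the sources used here. Libraries were made from total RNA with a NEBNext Ultra kit. No label ties a library to a particular mouse, so each p-value rests on how far these libraries vary, which may be technical in part. The comparison asks how the level of each transcript differs between hepatocytes with and without Xbp1 on this diet.

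Complex I is an L-shaped assembly in the inner mitochondrial membrane. Its matrix arm takes electrons from NADH and passes them through flavin and iron-sulfur clusters to ubiquinone, and its membrane arm pumps protons. A catalytic core inherited from bacteria is wrapped by accessory subunits that stabilise it and help its assembly. The core subunits of the matrix arm are nuclear-encoded (Ndufv1, Ndufv2 and several Ndufs genes). Those of the membrane arm are encoded by mitochondrial DNA (the mt-Nd genes), so the complex draws on both genomes of the cell. In the liver, complex I reoxidises the NADH made by fatty acid oxidation and the citric acid cycle.

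Total counts per library were 23919355, 25160826 and 26502456 in XCON 1 to 3 and 26999113, 26477489 and 27240079 in XCKO 1 to 3. XCON 1 stood apart in that mitochondrially encoded genes took 22.8% of its counts, against 8.99% to 13.1% in the other 5 libraries. Xbp1 itself was at 171, 294 and 319 CPM (counts per 1000000, after scaling by edgeR's TMM factors) in XCON and at 59.0, 39.3 and 67.4 CPM in XCKO, a log2 fold change of −2.24 ± 0.29 (SE; edgeR adjusted p = 0.0084). Counts per gene do not show whether its remaining reads fall in the deleted part. All 12 hepatocyte markers listed for the check were detected, with summed levels of 72463 to 97537 CPM in XCON and 105265 to 135982 CPM in XCKO, and 1 of the 12 was higher. Markers of other cell types gave smaller sums. Summed levels ran from 1441 to 2795 CPM in XCON and 507 to 1427 in XCKO for 12 macrophage markers (1 lower), from 312 to 666 and 126 to 314 for 10 stellate cell markers (3 lower), and from 251 to 583 and 82.5 to 162 for 6 cholangiocyte markers (0 called). They were 457 to 469 and 345 to 735 for 9 endothelial markers, 56.4 to 121 and 16.4 to 54.6 for 9 lymphocyte markers, and 42.3 to 70.0 and 77.4 to 939.6 for 6 erythroid markers, with 0 called in each. Log2 fold changes were above 0 for all 12 hepatocyte (median 0.40), all 5 tested erythroid (4.45) and 6 of 9 endothelial markers (0.10). They were below 0 for all 12 macrophage (−0.995), 10 stellate cell (−1.26), 5 tested cholangiocyte (−1.74) and 8 tested lymphocyte markers (−1.48). Over all genes tested, 46.5% were above 0. No marker of any list was at 0 in all libraries, and the part of these markers in the results below was not tested. In bulk RNA, fewer cells of a type and less RNA per cell cannot be told apart.

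Transcripts of complex I were higher across most of the assembly in XCKO. A gene was called where edgeR's quasi-likelihood test gave a Benjamini-Hochberg adjusted p under 0.05 over all 14873 genes tested. Of the 36 subunits, 28 were called higher and 0 lower, with 8 not called. Over all genes tested, 9.27% were called, 5.21% higher and 4.05% lower. The 28 differed by 1.49- to 3.32-fold, and the median log2 fold change of the 36 was 0.84, beside −0.05 for all genes. In 35 of the 36 every XCKO library lay above every XCON library, which was so for 17.6% of all genes tested. A log2 fold change above 0 was found for 35 of the 36 and for 46.5% of all genes. Scaled by library totals alone in place of TMM, the median of all genes moved by −0.26, to −0.31, and 13.9% of all calls were upward, against 56.2%. The subunits then had a median of 0.57, 35 of 36 were still above 0 and 16 were called higher, beside 2.2% of all genes. Relative to the median of all genes, the protein-coding members stood 0.87 higher with that scaling and 0.89 higher with TMM. A change of scaling shifts all genes nearly alike, so this distance stays nearly the same by construction and does not test the scaling. The authors' deposited comparison rests on the same counts and is not an independent check. In it, 5.51% of 24709 genes had an adjusted p under 0.05 upward. It lists the same 30 members as higher (28 subunits, Ndufa4 and Ndufb4c) and 1 as lower (Ndufs6b).

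Added up, the 36 transcripts made 1303 ± 100.5 CPM in XCON and 2276 ± 273 CPM in XCKO (SD, n = 3 each), a ratio of 1.75. In unscaled counts they were 0.148%, 0.129% and 0.152% of the library in XCON and 0.192%, 0.208% and 0.220% in XCKO, a ratio of 1.45, so the size of the difference depends on the scaling while the groups stay apart. Log2 CPM values were also set against their XCON mean. The median subunit stood at 0.07, −0.13 and 0.06 in XCON 1 to 3 and at 0.72, 0.76 and 1.02 in XCKO 1 to 3. XCKO 3 was the highest library for 34 of the 36 subunits. XCON 2 was the lowest for 25 of them.

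**Figure D1:**
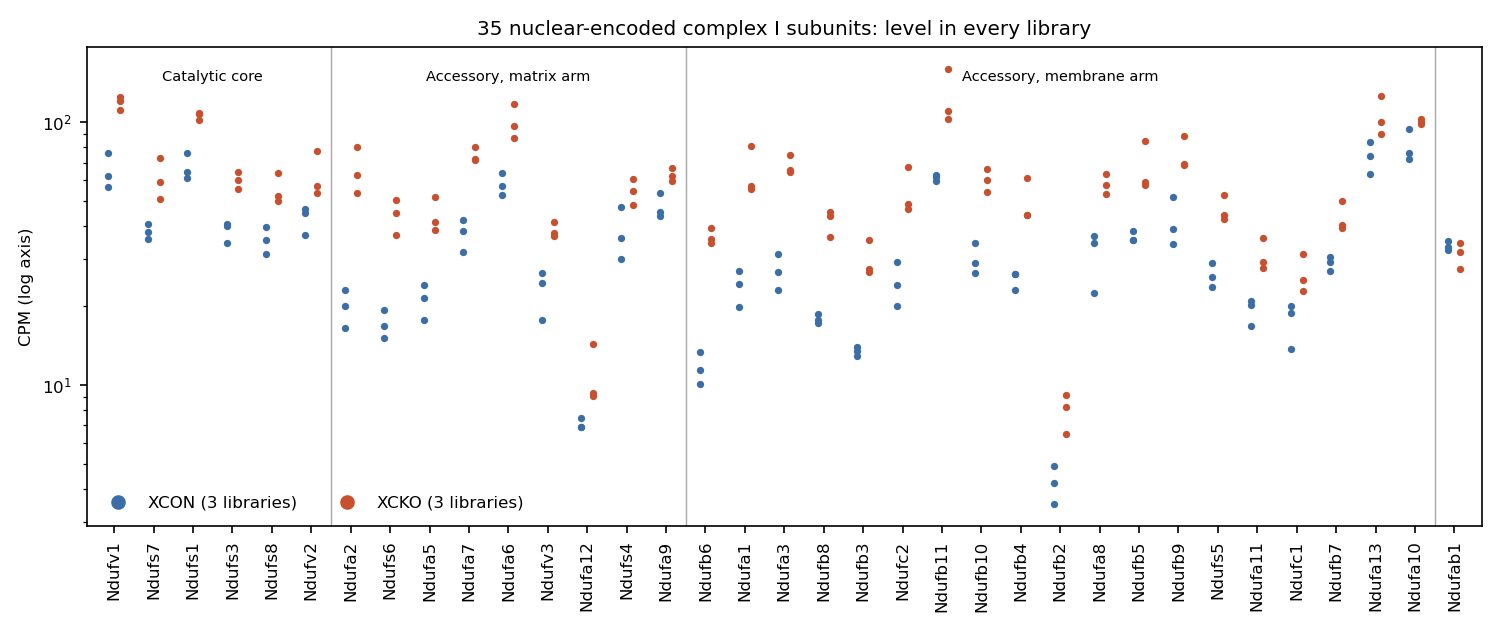
Level of 35 nuclear-encoded complex I subunits in each of the 6 libraries, in TMM-scaled CPM on a log axis, with blue points for XCON and orange points for XCKO. Genes are grouped into catalytic core, accessory subunits of the matrix arm, accessory subunits of the membrane arm and Ndufab1 at the far right. In 34 of the 35 genes drawn the 3 XCKO points lie above the 3 XCON points, and Ndufab1 is the exception.

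The catalytic core of the matrix arm holds 7 nuclear-encoded subunits, of which 6 were called higher. Ndufv1, which binds NADH and the flavin where electrons enter the complex (ENSMUSG00000037916, chr19:4007497-4012806, minus strand, mm10), was at 62.3, 56.7 and 76.2 CPM in XCON and at 111, 120.1 and 125 CPM in XCKO. The groups were well separated, and the log2 fold change was 0.87 ± 0.16 (edgeR adjusted p = 0.019). Ndufv2, its neighbour in the NADH-binding module, was at 44.8, 37.2 and 46.7 CPM in XCON and at 53.5, 57.2 and 77.4 CPM in XCKO. It is the core member that was not called, with a log2 fold change of 0.55 ± 0.18 (edgeR adjusted p = 0.085) and no overlap between the groups. Ndufs1, the largest subunit and carrier of iron-sulfur clusters in the same module, was at 64.5, 61.1 and 75.9 CPM in XCON and at 107, 102 and 109 CPM in XCKO. Its XCKO libraries were close together and all above XCON (log2 fold change 0.66 ± 0.15, edgeR adjusted p = 0.031).

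Closer to the membrane, Ndufs7 borders the site where ubiquinone is reduced. It was at 40.8, 35.7 and 38.1 CPM in XCON and at 51.0, 59.2 and 72.6 CPM in XCKO. Its XCKO libraries spread more than its XCON libraries but did not reach down to them (0.67 ± 0.16, edgeR adjusted p = 0.038). Ndufs3, part of the module that joins the arms, was at 41.0, 34.7 and 40.2 CPM in XCON and at 55.6, 60.4 and 64.7 CPM in XCKO. All 3 XCKO libraries were higher, and the log2 fold change was 0.64 ± 0.14 (edgeR adjusted p = 0.029). Ndufs8, which carries iron-sulfur clusters on the path to ubiquinone, was at 35.6, 31.3 and 39.9 CPM in XCON and at 52.0, 49.99 and 64.0 CPM in XCKO. XCKO 3 was again the highest library, and the log2 fold change was 0.64 ± 0.16 (edgeR adjusted p = 0.042). The 7 core genes thus sat in a narrow band of 1.46- to 1.82-fold.

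The accessory subunits covered a wider range. Of 29, 22 were called higher, and log2 fold changes ran from −0.10 to 1.73 with a median of 0.90, beside 0.66 for the core. By the letters of the symbols, 9 of 11 S and V genes were called (median 0.67) and 20 of 27 A, B and C genes (median 0.90, Ndufa4 and Ndufa4l2 included). The letters do not follow the core exactly: Ndufs4, Ndufs5, Ndufs6 and Ndufv3 are accessory subunits, of which 3 were called (median 0.80). All 10 protein-coding Ndufb genes taken by the rule were called (median 0.99). The rule leaves out Ndufb1-ps, which was not called. Also called were 9 of 15 Ndufa genes, 1 of 2 Ndufc genes, 7 of 8 Ndufs genes and 2 of 3 Ndufv genes. By position in the complex, 12 of 16 matrix arm subunits (median 0.70) and 16 of 19 membrane arm subunits (median 0.92) were called. The difference between these classes was not tested, and the core genes are also longer (median deposited length 2178 bases, against 1251 for the accessory genes).

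**Figure D2:**
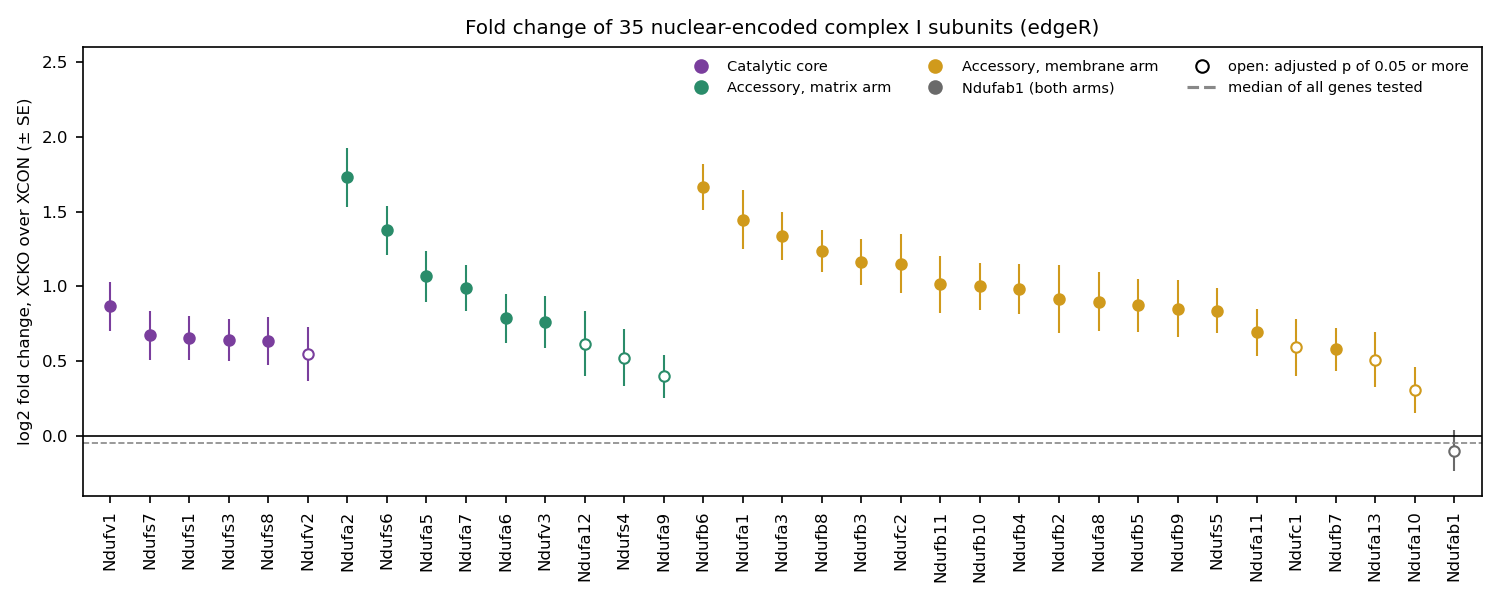
Log2 fold change of XCKO over XCON with its standard error for 35 nuclear-encoded complex I subunits, from edgeR's quasi-likelihood fit of 3 against 3 libraries, with filled points for an adjusted p under 0.05 and open points otherwise. The core genes lie between 0.55 and 0.87, the accessory genes between −0.10 and 1.73, and the dashed line marks the median of all genes tested at −0.05.

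The accessory subunits with the smallest p-values came from both arms. Ndufb6, a small single-span protein of the distal membrane arm (ENSMUSG00000071014, chr4:40270591-40279421, minus strand, mm10), was at 10.04, 11.4 and 13.3 CPM in XCON and at 35.9, 34.7 and 39.4 CPM in XCKO. The XCKO libraries were tight and far above XCON, a 3.17-fold difference (log2 1.66 ± 0.15, edgeR adjusted p = 0.0020). Ndufa2, a thioredoxin-like protein of the NADH-binding module, was at 22.9, 16.4 and 20.0 CPM in XCON and at 53.6, 62.7 and 80.2 CPM in XCKO. It had the largest fold change of the 36 subunits at 3.32-fold (log2 1.73 ± 0.20, edgeR adjusted p = 0.0059), and its groups did not overlap. Ndufb8, another distal membrane arm subunit, was at 17.6, 17.2 and 18.6 CPM in XCON and at 43.9, 36.4 and 45.5 CPM in XCKO. Its XCON libraries were nearly equal, and the fold difference was 2.35 (edgeR adjusted p = 0.0059).

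Ndufs6, a zinc-binding subunit that enters late in the assembly of the matrix arm (ENSMUSG00000021606, chr13:73319838-73328542, minus strand, mm10), was at 16.7, 15.1 and 19.2 CPM in XCON and at 37.2, 44.9 and 50.5 CPM in XCKO. The lowest XCKO library stood well above the highest XCON library, and the fold difference was 2.59 (edgeR adjusted p = 0.0071). Ndufa3, a small subunit of the proximal membrane arm, was at 31.5, 26.8 and 22.9 CPM in XCON and at 65.3, 64.7 and 75.0 CPM in XCKO (2.53-fold, edgeR adjusted p = 0.0071). Ndufb3, of the distal membrane arm, was at 13.5, 12.9 and 13.9 CPM in XCON and at 27.6, 26.9 and 35.7 CPM in XCKO (2.24-fold, edgeR adjusted p = 0.0084). Both genes were separated in every library, with XCKO 3 highest. Ndufa1, a membrane subunit needed for assembly, was at 27.1, 24.2 and 19.7 CPM in XCON and at 55.7, 56.8 and 81.0 CPM in XCKO. It is X-linked (chrX:37187588-37191163) and differed 2.72-fold (edgeR adjusted p = 0.0089), with XCKO 3 apart from the other XCKO libraries.

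Ndufb10, a subunit of the distal membrane arm with paired cysteines, was at 26.6, 29.0 and 34.6 CPM in XCON and at 54.2, 60.2 and 66.0 CPM in XCKO (2.00-fold, edgeR adjusted p = 0.012). Ndufa7, on the matrix arm, was at 42.4, 31.9 and 38.4 CPM in XCON and at 72.3, 71.3 and 80.5 CPM in XCKO (1.99-fold, edgeR adjusted p = 0.012). In both genes the lowest XCKO library was well above the highest XCON library. The other 13 called subunits were Ndufa5, Ndufa6, Ndufa8, Ndufa11, Ndufb2, Ndufb4, Ndufb5, Ndufb7, Ndufb9, Ndufb11, Ndufc2, Ndufs5 and Ndufv3. Ndufb7 differed least among them, at 1.49-fold, and Ndufc2, a membrane arm subunit, most, at 2.22-fold.

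At the other end stood Ndufab1, the mitochondrial acyl carrier protein, which is present in both arms and also works in mitochondrial fatty acid synthesis and iron-sulfur cluster assembly (ENSMUSG00000030869, chr7:122085403-122101886, minus strand, mm10). It was at 35.2, 33.3 and 32.5 CPM in XCON and at 27.6, 32.0 and 34.6 CPM in XCKO. The groups overlapped, and no other subunit had a log2 fold change below 0 (−0.10 ± 0.14, edgeR adjusted p = 0.66). Ndufa10, a membrane arm subunit related to nucleoside kinases, was at 76.5, 72.5 and 94.0 CPM in XCON and at 100.1, 98.4 and 103 CPM in XCKO. Its groups were separated by a small gap only (0.31 ± 0.15, edgeR adjusted p = 0.21). The remaining uncalled subunits had log2 fold changes of 0.59 (Ndufc1), 0.62 (Ndufa12), 0.51 (Ndufa13), 0.40 (Ndufa9) and 0.52 (Ndufs4), with edgeR adjusted p-values from 0.079 to 0.11. Their libraries did not overlap between the groups, but the differences did not pass the test.

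The other rows of the name rule behaved variously. Ndufa4, of complex IV, was at 160.2, 124 and 139 CPM in XCON and at 218, 220.4 and 319 CPM in XCKO, and was called (log2 0.84 ± 0.20, edgeR adjusted p = 0.038). That call held in 1 of the 6 fits without 1 library, the one without XCKO 2 (adjusted p up to 0.0996, without XCKO 3), and was lost with library totals alone (0.073) and with length offsets (0.067). Its hypoxia-responsive paralog Ndufa4l2 was near the limit of detection at 0.89, 0.77 and 1.01 CPM in XCON and 0.81, 1.16 and 1.73 CPM in XCKO, with overlapping groups (0.47 ± 0.42, edgeR adjusted p = 0.49). The pseudogene Ndufb4c had 5, 3 and 2 reads in XCON and 26, 47 and 50 reads in XCKO (log2 3.73 ± 0.56, edgeR adjusted p = 0.011). It was called in each fit without 1 library. Ndufs6b went the other way, with 15, 16 and 38 reads in XCON and 4, 3 and 3 reads in XCKO (−2.55 ± 0.59, edgeR adjusted p = 0.034), beside 4.05% of all genes called lower and 18.1% whose XCKO libraries all lay below XCON. The Ndufs6b call was lost in all 6 fits without 1 library (adjusted p up to 0.1001, without XCKO 3) and in limma-voom (adjusted p = 0.052). Ndufa11b had 0 reads in every library, which allows up to 3 reads by counting error, and was not tested. Reads of processed pseudogenes can be shared with their parent genes, so these low counts are uncertain.

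Levels between genes were compared per length, in the authors' deposited FPKM. Across the 36 subunits the XCON mean ran from 0.729 FPKM (Ndufb2) to 65.9 FPKM (Ndufb11) with a median of 20.7, and the XCKO mean from 1.41 FPKM (Ndufb2) to 154 FPKM (Ndufa1) with a median of 41.0. By this measure, transcripts of subunits that end up in the same complex were of very unequal abundance in both groups. FPKM divides by the deposited gene length, which was 5628 bases for Ndufb2, 908 for Ndufb11 and 419 for Ndufa1. The range depends on these lengths as well. The fold change had little relation to that level (Spearman rho of XCON mean FPKM against log2 fold change 0.19 across 36 genes, which share libraries and are not independent). Counts behind the subunits drawn by library were 104 to 3684 reads per library. For Ndufb2 the count is less certain, because its end overlaps the end of Braf on the opposite strand, whose total was 384% of its own, and whether counting used strand was not given in the sources used here. In all, 19 of the 36 subunits overlap another listed gene.

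Fold changes followed gene length. Across the 36 subunits the Spearman rho of deposited length against log2 fold change was −0.59, and across all 14873 genes, which share these libraries, it was −0.22. The shortest decile of genes (24 to 1274 bases) had a median log2 fold change of 0.21 with 10.9% called higher. Of its 1492 genes, 16 were subunits of complex I, and 15 of these were called higher, with a median of 1.04. The longest decile had a median of −0.25 with 0.874% called higher. With offsets that remove the trend with length in each library, 22 of the 36 subunits were called higher, beside 4.35% of all genes. In that fit 36 of 36 had a log2 fold change above 0, and their median was 0.64, beside −0.02 for all genes. Of the core, 3 of 7 were then called (Ndufs1, Ndufs3 and Ndufv1), and of the accessory subunits 19 of 29.

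**Figure D3:**
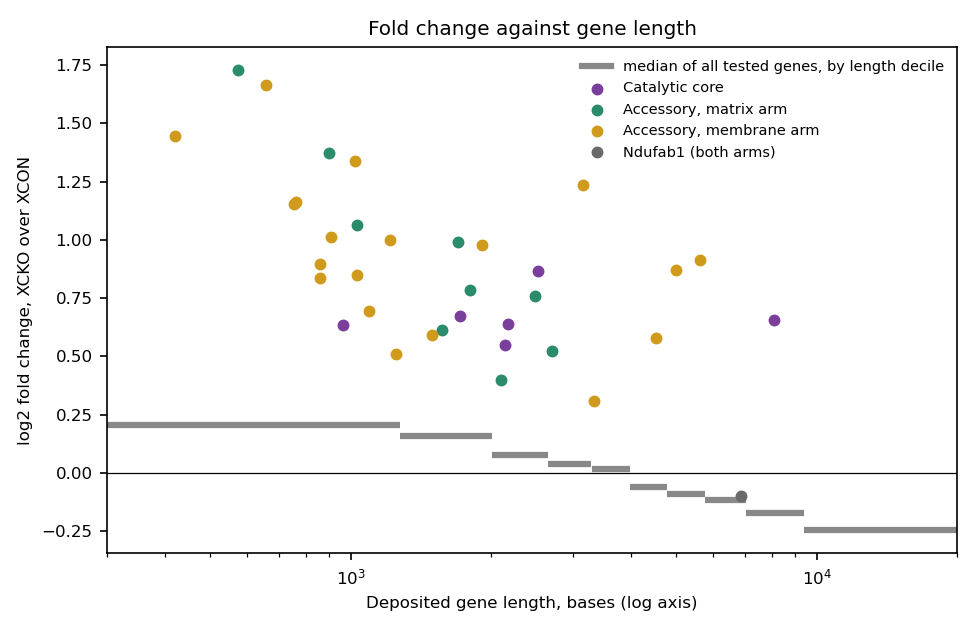
Log2 fold change of XCKO over XCON against the deposited gene length in bases (log axis) for 35 nuclear-encoded subunits, with grey bars for the median of all tested genes in each decile of length. Short subunit genes reach the highest fold changes, the grey medians fall from 0.21 to −0.25, and the 35 subunits all lie above the bar for their length, Ndufab1 by the smallest margin.

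The calls differed in how much they rested on single libraries. Leaving out 1 library at a time, 12 subunits were called in all 6 fits: Ndufa1, Ndufa2, Ndufa3, Ndufa5, Ndufa7, Ndufb3, Ndufb4, Ndufb6, Ndufb8, Ndufb10, Ndufc2 and Ndufs6. All 12 are accessory subunits, 4 of the matrix arm and 8 of the membrane arm, with fold changes of 1.97 to 3.32 and a median length of 960 bases (2124 for the other 24). All 12 were also called with the length offsets. Of the 7 core genes, 0 were called in all 6 fits. Ndufv1 was called in 3, and Ndufs3, Ndufs8 and Ndufv2 in 0. Of the 29 accessory subunits, 9 were also called in 0 of these fits. Of the 38 protein-coding rows, 29 were called with all libraries, 15, 15 and 16 without XCON 1, 2 and 3, and 19, 22 and 13 without XCKO 1, 2 and 3. These fits have fewer samples, and the share of all genes called higher fell with them, to between 1.15% and 3.38%. In each of them 37 of the 38 had a log2 fold change above 0.

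**Figure D4:**
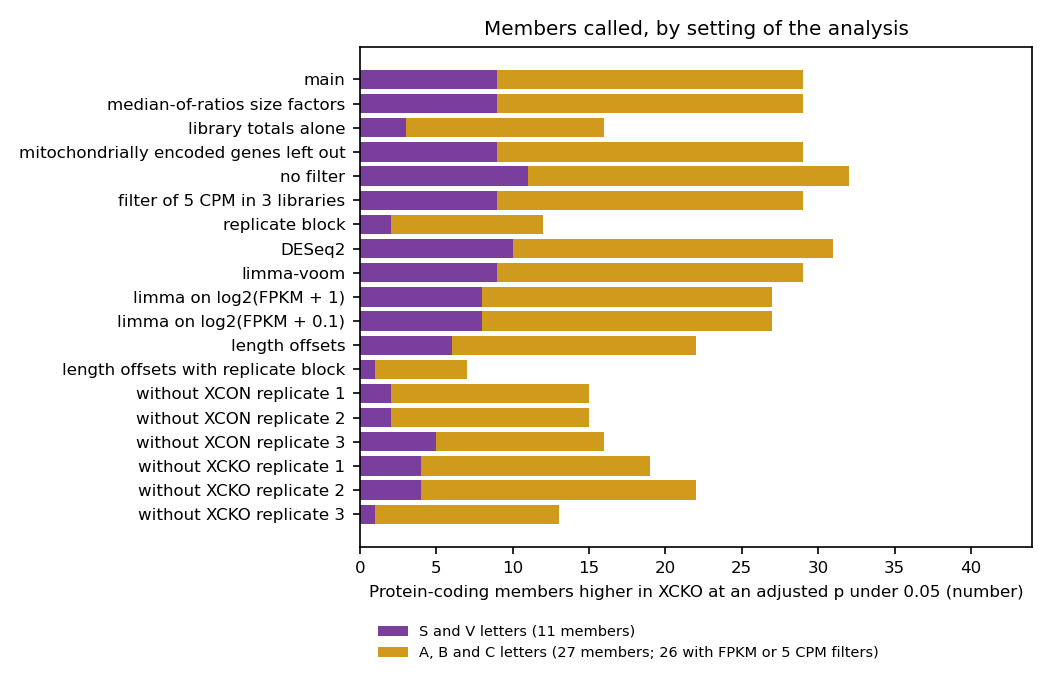
Number of protein-coding members called higher in XCKO (horizontal axis) under each setting of the analysis, with the S and V letters in purple and the A, B and C letters in ochre. The count is 29 in the main fit, 16 with library totals alone, 12 with a replicate block, and 13 to 22 when 1 library is left out.

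Of the 7 subunits encoded by mitochondrial DNA, 0 were called. These genes form the proton-pumping core of the membrane arm. Their summed level was 82814, 36578 and 32607 CPM in XCON and 42000, 37436 and 57768 CPM in XCKO, with XCON 1 the highest library and the groups overlapping. Log2 fold changes were −0.05 ± 0.39 for mt-Nd1, −0.30 ± 0.39 for mt-Nd2, −0.15 ± 0.40 for mt-Nd3, 0.16 ± 0.41 for mt-Nd4, −0.29 ± 0.35 for mt-Nd5 and −0.39 ± 0.34 for mt-Nd6. Their edgeR adjusted p-values were 0.48 to 0.94, and the standard errors are wide enough for a change of the size seen in the nuclear genes to go undetected. The difference between the nuclear and mitochondrial genes was not tested. mt-Nd4l differed from the rest at 70.5, 22.4 and 20.4 CPM in XCON and 89.9, 171 and 299.8 CPM in XCKO. Its groups did not overlap, but it was not called (2.31 ± 0.65, edgeR adjusted p = 0.074). It passed only without XCON 1, among the fits that leave out 1 library. Its annotated end overlaps the start of mt-Nd4, and reads across the overlap can belong to either gene. Leaving the mitochondrially encoded genes out of the library totals gave 29 called protein-coding members, as with them.

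**Figure D5:**
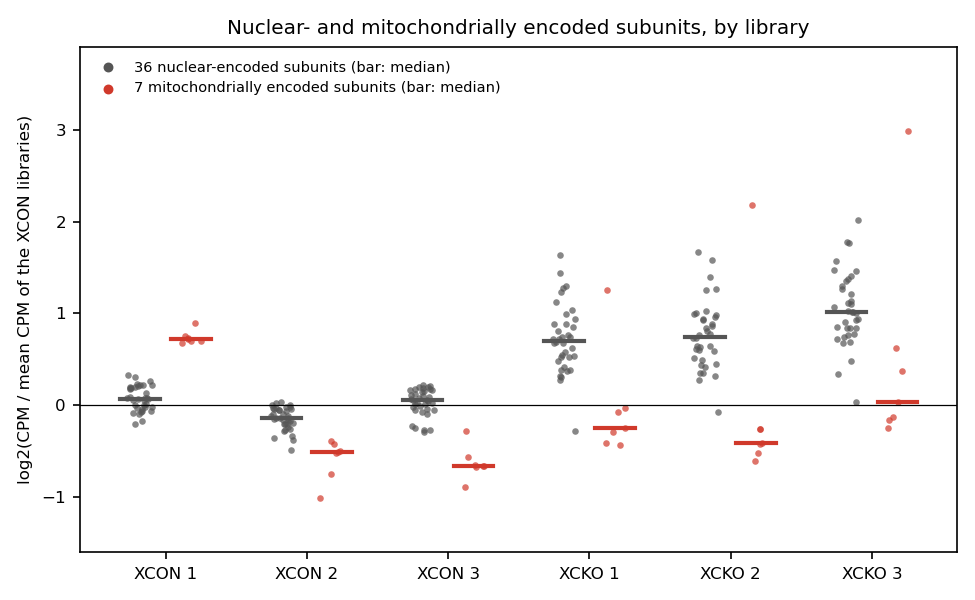
Log2 of the CPM in each library over the mean of the XCON libraries, for the 36 nuclear-encoded subunits (grey) and the 7 mitochondrially encoded subunits (red), with a bar at each median. The grey medians are 0.07, −0.13 and 0.06 in XCON and 0.72, 0.76 and 1.02 in XCKO, while the red points overlap between the groups except for mt-Nd4l, the red point farthest above the others in XCKO.

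Subunits of the other respiratory complexes were higher as well. Of 38 nuclear-encoded subunits of complexes II to V, 31 were called higher and 0 lower, with a median log2 fold change of 0.86, where 5.21% of all genes were called higher. In all 38 the XCKO libraries lay above XCON, as in 17.6% of all genes. Atp5k, a small membrane subunit of ATP synthase, was at 7.58, 7.29 and 8.62 CPM in XCON and 30.6, 34.7 and 48.9 CPM in XCKO (2.28 ± 0.20, edgeR adjusted p = 0.0019). Uqcr11 of complex III was at 40.4, 36.7 and 37.7 CPM in XCON and at 107, 121 and 138 CPM in XCKO (1.67 ± 0.15, edgeR adjusted p = 0.0020). Both were far above XCON in every XCKO library. Cox5b of complex IV (0.95 ± 0.13, edgeR adjusted p = 0.0096) and Atp5g3, of the ATP synthase ring (1.26 ± 0.18, edgeR adjusted p = 0.0098), were called as well, and all 4 were called in each fit without 1 library. The number called among the 38 was 10 (without XCKO 3) to 25 (without XCKO 2) in those fits. In the same 2 fits 1.15% and 3.38% of all genes were called higher. It was 17 of the 38 with library totals alone (all genes 2.2%) and 24 with length offsets (all genes 4.35%).

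Complex I assembly factors build the complex without staying in it. Of 17 tested, 3 (17.6%, all genes 5.21%) were called higher: Timmdc1, which helps build the membrane arm (15.9 ± 0.761 CPM in XCON and 27.8 ± 3.34 CPM in XCKO, edgeR adjusted p = 0.017), Ecsit (log2 0.73 ± 0.13, edgeR adjusted p = 0.017) and Ndufaf8 (1.17 ± 0.28, edgeR adjusted p = 0.035). All 17 had a log2 fold change above 0, as did 46.5% of all genes, and their median was 0.56. Without 1 library, 0 to 3 were called (all genes 1.15% to 3.38% higher), with 0 without XCKO 3. Of 14 regulators of respiratory chain genes, 1 (7.14%) was called higher and 0 lower, a share near the 5.21% of all genes, and their median log2 fold change was 0.18. The one called was Esrra, the nuclear receptor ERRα (1.15 ± 0.22, edgeR adjusted p = 0.021), and the call was lost without XCON 1, XCON 3 or XCKO 3 (adjusted p up to 0.066).

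The 36 subunit genes lie on 15 chromosomes. Some of them have a protein-coding partner gene that starts within 1000 bases on the opposite strand. Partners were not searched completely over the 36, so no share is set beside that of all genes. Of the partners found, 5 were tested (Rnf113a1, Ik, Rbm10, Eef1b2 and Mrpl36). Of these, 0 were called, beside 9.27% of all genes. Eef1b2, a translation elongation factor subunit whose start lies 8 bases from that of Ndufs1, was at 78.1 ± 4.66 CPM in XCON and 110.3 ± 20.1 CPM in XCKO (log2 0.50, edgeR adjusted p = 0.097). Mrpl36, a mitochondrial ribosomal protein gene 29 bases from the start of Ndufs6, was at 14.4 ± 2.01 CPM and 20.9 ± 1.90 CPM (0.53, edgeR adjusted p = 0.063). The partner of Ndufa2, the splicing factor gene Ik, was at 44.4 ± 4.30 CPM and 39.1 ± 6.53 CPM (−0.18, edgeR adjusted p = 0.49). These values stand beside 1.37 for Ndufs6, 0.66 for Ndufs1 and 1.73 for Ndufa2 on the same log2 scale, and the differences between partners were not tested. Eef1b2, Mrpl36 and Rbm10 also overlap their subunit genes on the opposite strand, with totals of 109%, 58.3% and 26.7% of the subunit's own. Whether counting used strand was not given, so reads of these pairs may be shared.

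Promoter windows of 300 bases (250 before and 50 after each start site) were read for 33 of the 38 protein-coding members from RefSeq on GRCm38.p6. The windows of the members had a median GC content of 59.0%, against 52.7% for all 32851 windows. Short letter strings were searched on both strands. The YY1 string AAGATGGC was present for 7 of 33 members (21.2%) and for 3.19% of all genes with a window. The XBP1 and ATF6 box CCACG was present for 12 of 33 (36.4%) and for 35.5% of all genes, and the longer UPRE string TGACGTGG, which contains the box, for 0 of 33 and 0.714%. The ETS string CCGGAAG was present for 4 of 33 (12.1%, all genes 9.93%). The NRF1 string GCATGCGC was present for 3 (9.09%, all genes 3.05%), and the full NRF1 motif, which has a further GC in front, for 1 (3.03%, all genes 1.07%). The ERR string TCAAGGTCA was present for 0 (all genes 0.466%) and its inner part AAGGTCA for 3 (9.09%, all genes 5.38%). A match is a string of letters and not a site shown to be bound.

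The 7 YY1 strings are printed because they share their place. Each lies on the strand of its gene, from 23 to 39 bases after the start site, and the ATG inside it is the annotated start codon. Over all windows, 40.2% of the matches to the string lie after the start site. Whether the ATG of a match is a start codon was checked for the members only, so no share over all windows stands beside it. The stretches are given 5′ to 3′ with the string in capitals.
Ndufa3: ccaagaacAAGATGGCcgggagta
Ndufa9: tgtgggagAAGATGGCggccgccg
Ndufb8: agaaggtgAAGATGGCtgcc
Ndufc1: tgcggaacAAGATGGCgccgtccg
Ndufs4: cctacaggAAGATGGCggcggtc
Ndufs6: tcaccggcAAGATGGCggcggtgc
Ndufs7: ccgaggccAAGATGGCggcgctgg
On GRCm38.p6 they are Ndufa3 chr7:3617387-3617410 (plus strand), Ndufa9 chr6:126849100-126849123 (minus strand), Ndufb8 chr19:44555393-44555412 (minus strand), Ndufc1 chr3:51408918-51408941 (minus strand), Ndufs4 chr13:114388045-114388067 (minus strand), Ndufs6 chr13:73328434-73328457 (minus strand) and Ndufs7 chr10:80249465-80249488 (plus strand). Of these 7 genes, 4 were called higher (Ndufa3, Ndufb8, Ndufs6 and Ndufs7) and 3 were not called (Ndufa9, Ndufc1 and Ndufs4).

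Upstream sequence is shown for a pair of subunits among those called in every fit without 1 library, and for Ndufab1, which was not called. Capitals mark any of the strings above. The stretches end at the base before the first annotated exon and leave out exons of neighbouring genes. They are, on GRCm38.p6, chr4:40279422-40279671 (minus strand), chr7:3617123-3617372 (plus strand) and chr7:122101887-122102098 (minus strand).
Ndufb6: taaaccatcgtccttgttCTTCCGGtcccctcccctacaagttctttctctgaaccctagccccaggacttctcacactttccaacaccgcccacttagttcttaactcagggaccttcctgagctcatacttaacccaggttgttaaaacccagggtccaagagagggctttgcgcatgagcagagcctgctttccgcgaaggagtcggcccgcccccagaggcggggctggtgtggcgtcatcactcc
Ndufa3: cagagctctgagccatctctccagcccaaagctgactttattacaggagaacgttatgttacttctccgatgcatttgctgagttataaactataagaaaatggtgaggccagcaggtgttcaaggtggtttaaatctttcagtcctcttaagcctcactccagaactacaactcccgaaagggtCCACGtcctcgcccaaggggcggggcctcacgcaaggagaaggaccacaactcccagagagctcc
Ndufab1: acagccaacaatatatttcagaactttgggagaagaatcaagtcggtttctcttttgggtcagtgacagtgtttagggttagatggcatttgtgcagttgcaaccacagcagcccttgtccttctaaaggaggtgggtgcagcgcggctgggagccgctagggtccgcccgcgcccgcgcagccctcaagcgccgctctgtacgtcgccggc
Ndufb6 carries an ETS string in reverse orientation (CTTCCGG) and Ndufa3 a CCACG box. The Ndufab1 stretch holds none of the strings searched, which says only that these letters are not in this window.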

How the data were processed

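RNA of 6 hepatocyte samples was sequenced, 3 XCON and 3 XCKO, grouped by their titles. In 1 table the authors deposited, per the file headers, the read counts of each library by Ensembl gene, unnormalized, and FPKM values made from them. The same table has the authors' deposited group means, a signal of size-factor-scaled counts, with a log2 fold change, p-value and adjusted p-value per gene, and gene lengths. The tool behind them was not given in the sources used here. The deposited log2 fold changes match those of the DESeq2 fit made here from the same counts, as for Ndufa1 (1.487 in both) and Ndufa10 (0.345 in both). The submitters' processing notes name the aligner Bowtie 0.12.2 as well as mm8 and mm10, without saying what each was for. The read counter and its strand setting were not given in the sources used here. Coordinates are printed as the table lists them. All 41 members were found in GENCODE M21 on GRCm38 (mm10), 37 of them with the same start and end.

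The counts were tested with edgeR 4.0.16 (R 4.3.3) as planned: filterByExpr, TMM factors, and the robust quasi-likelihood F test of XCKO against XCON with Benjamini-Hochberg adjustment over the 14873 genes that passed the filter, at a threshold of 0.05. Of the members, 40 of 41 passed. Standard errors come from the fold change and the F statistic (log2 value over the root of F), the common biological coefficient of variation was 25.8%, and CPM are counts per 1000000 of the TMM-scaled library. The procedure was also run on counts simulated from the means and dispersions fitted to these data. Such counts follow the model's own assumptions, so that run does not test the trend with length or library effects. With 3 libraries per group, replicate spread and not read depth limits the precision for genes of this level, and intervals cover these libraries only.

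The members and lists were chosen with earlier results of these data known. Library values are given for 6 of the 7 core genes (1 is not reported here, and counts and medians include it), the 10 other members with the smallest p among those called (Ndufb4c among them), each member called lower and the 3 with the largest p, with Ndufa4 and Ndufa4l2 whatever their values. From other lists, up to 4 called genes with the smallest p are named. Lists are described by counts and medians, without a set test. Alternatives were other scalings, filters, DESeq2 1.42.0, limma 3.58.1 on counts (voom) and on log2(FPKM + 1) and log2(FPKM + 0.1) for genes with at least 1 FPKM in 3 libraries, length offsets (a loess on log2 gene length in each library), a replicate block and leaving out each library. Promoter windows came from RefSeq (GRCm38.p6).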

Additional observations from a re-analysis of the deposited data

How the results depend on the processing

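The limits of the data are the 3 libraries per group, which set the precision, and the unstated use of strand in counting. Replicate numbers do not pair the libraries: deviations from the group means correlated at 0.0554, 0.0765 and −0.168 between libraries numbered 1, 2 and 3, and the numbers were not used as a pairing. With the replicate block, 12 members were called, against 31 (30 higher and 1 lower), with 2 of the S and V class, against 9, 10 of the A, B and C class, against 20, and 322 of all genes, against 1378. The block uses up residual degrees of freedom. With length offsets and the replicate block these counts were 7, 1, 6 and 198. Of the 38 subunits of complexes II to V, 13 were called with the block and 5 with length offsets and the block, against 31, and of the 17 assembly factors 0, against 3. Ndufa4 (edgeR adjusted p = 0.078), Ndufb4c (0.051) and Ndufs6b (0.079) were not called with the block. With library totals alone the counts of members, both classes and all genes were 18, 3, 13 and 2355. Over all genes, 2160 were called with no filter and 2524 by DESeq2. Without 1 library at a time, 14 to 23 members, 1 to 5 of the S and V class, 11 to 18 of the A, B and C class and 309 to 810 of all genes were called. The median-of-ratios scaling, the mitochondrial genes left out, the filter of 5 CPM, limma-voom, both FPKM fits and the length offsets kept all 4 counts within 1.5 times. With the FPKM fits, 72.7% and 74.5% of the calls over all genes were upward, against 56.2%. The fold change of Ndufab1 changed sign to 0.031 with length offsets and to 0.023 with length offsets and the replicate block, with edgeR adjusted p-values of 0.91 and 0.94; it was called in neither. Among the members' other values over all alternatives, 560 kept their direction and side of the threshold, 148 kept the direction and lost the call, and 5 gained it.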

Other observations

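Proteins of the mitochondrial ribosome, which translate the mt-Nd messages, were described as a further group of nuclear-encoded mitochondrial genes. Of 77 tested, 21 (27.3%) were called higher, where 5.21% of all genes were, and 0 lower, with a median log2 fold change of 0.46, beside 0.84 for the 36 complex I subunits and −0.05 for all genes. Of 93 tested genes whose names begin like those of cytosolic ribosomal proteins, 7 (7.53%) were called higher and 3 (3.23%) lower, with a median of 0.31. Those shares of calls are near the 5.21% and 4.05% of all genes. By direction, 75 of the 93 had a log2 fold change above 0 and 18 below, where 46.5% of all genes were above. In 30 every XCKO library lay above every XCON library, and in 5 below (all genes 17.6% and 18.1%). The name pattern also takes in 10 genes for Rps6k kinases, and without them 7 of 84 were higher and 2 lower, with a median of 0.34.

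The name rule left out the symbols with "-ps". Ndufb1-ps, annotated as a non-coding RNA from a bidirectional promoter, was at 22.05, 19.98 and 20.8 CPM in XCON and at 24.1, 20.8 and 25.5 CPM in XCKO, with overlapping groups (log2 0.16 ± 0.14, edgeR adjusted p = 0.46). Ndufab1-ps, a processed pseudogene, was at 5.62, 4.03 and 4.77 CPM in XCON and at 3.16, 4.58 and 5.19 CPM in XCKO (−0.16 ± 0.27, edgeR adjusted p = 0.72).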
